A study of Mus musculus with 6 samples.

Results

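The genes described here are the mouse Ras-MAPK regulators of the Dusp, Spry, Spred, Rasgrp, Rasa and Rasal families, measured in B-cell progenitors at 24 hours after a vector for EBF1 or for Pax5 was introduced. A gene was a member when its symbol in the array annotation began with one of these family names followed by a digit. The rule took 46 probe sets for 42 genes, of 20474 genes with a symbol. By family there were 24 Dusp, 4 Spry, 3 Spred, 4 Rasgrp, 4 Rasa and 3 Rasal genes. Each gene was read from its brightest probe set, and 36 of the 42 lay above the filter on low values.

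All 6 arrays came from one line of pre-pro-B progenitors with the genotype Ebf1-/-, so the cells of every group lacked Ebf1 apart from what a vector supplied. The line was kept on OP9 stroma with the cytokines IL-7, stem cell factor and flt3-ligand, each at 10 ng/ml. EBF1 cells received the MigY-EBF1 virus (2 arrays), Pax5 cells the MigR-Pax5 virus (2 arrays) and Control cells the empty MigR1 virus (2 arrays), and sorted cells gave RNA at 24 hours. By these names the EBF1 vector (MigY) differs from the Pax5 and Control vectors (MigR), and no group received an empty MigY virus. In comparisons with EBF1 cells, the factor and the vector backbone therefore cannot be told apart. Expression was driven by a retroviral vector and every group derived from the same line, which limits all 3 groups as models of a normal progenitor. The labels do not say whether arrays 1 and 2 of a group came from separate transductions, so p-values measure the spread between these arrays only, which may be technical.

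Ras is a membrane switch that is active when bound to GTP. Exchange factors such as the Rasgrp proteins, which respond to diacylglycerol, load it with GTP, while the GTPase-activating proteins of the Rasa and Rasal families return it to the inactive state. Active Ras drives Raf, MEK and ERK, the Sprouty and Spred proteins damp that step, and the dual-specificity phosphatases (Dusp) remove phosphate from ERK, p38, JNK and other substrates. In early B cells this route is known to act downstream of cytokine receptors and of the pre-B-cell receptor.

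The promoters of 5 members on which the results turn are shown first, because these genes moved with one factor, with both, or in opposite directions. Each is the 250 bases just before the gene's first listed transcription start, 5′ to 3′ on the gene's own strand, from RefSeq (assembly GRCm38.p6). Capitals mark matches to the CArG box, the element known to bind serum response factor, and all other bases are in lower case.
Dusp6, chr10:99262981-99263230, plus strand: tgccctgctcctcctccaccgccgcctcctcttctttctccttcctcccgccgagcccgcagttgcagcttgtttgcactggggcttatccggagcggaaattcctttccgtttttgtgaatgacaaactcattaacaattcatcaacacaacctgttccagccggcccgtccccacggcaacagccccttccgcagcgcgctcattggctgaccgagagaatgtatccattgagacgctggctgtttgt
Dusp22, chr13:30659809-30660058, plus strand: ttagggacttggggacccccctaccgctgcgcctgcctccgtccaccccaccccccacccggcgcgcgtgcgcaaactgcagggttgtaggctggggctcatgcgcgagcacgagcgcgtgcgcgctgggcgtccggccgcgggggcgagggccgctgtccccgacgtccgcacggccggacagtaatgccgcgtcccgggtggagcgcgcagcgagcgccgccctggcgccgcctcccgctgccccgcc
Dusp5, chr19:53528895-53529144, plus strand: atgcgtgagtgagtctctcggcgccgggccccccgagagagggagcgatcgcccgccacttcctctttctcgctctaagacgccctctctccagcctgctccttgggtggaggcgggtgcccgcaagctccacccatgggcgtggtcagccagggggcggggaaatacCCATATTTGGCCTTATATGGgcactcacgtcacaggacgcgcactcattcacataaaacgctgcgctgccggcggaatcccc
Spred2, chr11:19924192-19924441, plus strand: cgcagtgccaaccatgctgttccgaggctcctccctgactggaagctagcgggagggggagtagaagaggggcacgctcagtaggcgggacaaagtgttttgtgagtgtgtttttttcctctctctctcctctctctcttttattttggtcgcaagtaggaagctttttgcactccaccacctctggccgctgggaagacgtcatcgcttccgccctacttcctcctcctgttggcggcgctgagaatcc
Rasgrp3, chr17:75435655-75435904, plus strand: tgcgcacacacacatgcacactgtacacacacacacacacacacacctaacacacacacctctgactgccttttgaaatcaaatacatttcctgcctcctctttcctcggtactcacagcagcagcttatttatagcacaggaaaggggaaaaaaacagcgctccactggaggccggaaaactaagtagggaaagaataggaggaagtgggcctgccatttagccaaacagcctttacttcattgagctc
The table of promoters held 38 starts for 32 of the 42 members. An EBF-type palindrome (TCCC and GGGA with any 2 bases between them, searched on both strands) was found in 0 of the 38 member promoters and in 0.779% of all 32851 promoters of this length. The cyclic AMP response element TGACGTCA was found in 2 of the 38, those of Dusp1 and Dusp8, and in 1.55% of all. The CArG box, a motif chosen after values of these genes had been seen, was found in 2 of the 38, those of Dusp5 and Rasa4, and in 1.47% of all. In Dusp5 it stood as 2 adjoining matches, whose first bases lay 82 and 72 bases before the start. A match describes the letters in this window only, and no binding was measured.

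Values are log2 RMA signals, and a change is a log2 difference of group means with its standard error (SE) from limma. Adjusted p-values come from limma over all 15296 genes tested, and genes at 0.05 or below are referred to as called. The Pax5 arrays differed more from each other than those of the other groups: over all genes the SD of the difference between a group's arrays was 0.263 for Pax5, 0.161 for EBF1 and 0.152 for Control. Among members it was 0.287 for Pax5, 0.135 for EBF1 and 0.125 for Control. Pax5 array 2 also carried higher signals of some myeloid and stromal genes, with S100a8 at 5.75 against 4.41 on Pax5 array 1 and Col1a2 at 6.04 against 5.31. Other genes of these lists were lower on Pax5 array 2, such as Itgam (6.21 against 6.44) and Col3a1 (3.69 against 3.97). The mean over the 8 myeloid markers was 4.02 and 4.16 in EBF1 cells, 4.22 and 4.70 in Pax5 cells and 4.24 and 4.14 in Control, with 6 of the 8 above the filter. The mean over the 13 OP9 stromal markers was 4.99 and 5.02 in EBF1 cells, 4.89 and 5.12 in Pax5 cells and 4.87 and 4.81 in Control, with 12 of the 13 above the filter. Lymphoid progenitor markers averaged 8.07 and 8.07 in EBF1 cells, 8.19 and 8.21 in Pax5 cells and 8.68 and 8.68 in Control, with all 8 above the filter. The brightest Ebf1 probe set averaged 9.92 in EBF1 cells, 8.89 in Pax5 cells and 8.87 in Control, and Pax5 averaged 6.09 in EBF1 cells, 11.38 in Pax5 cells and 5.02 in Control. Where that Ebf1 probe set lies relative to the deletion is unknown here, so the Control reading is no check of the genotype. The part that other cell types may have in the values below was not tested, and in sorted bulk samples fewer cells of a type and less RNA per cell cannot be told apart.

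The series asked which genes EBF1 and Pax5 each induce, and for the Ras-MAPK regulators the answer differed by gene. EBF1 raised Dusp5, Spred2 and Rasgrp2 and lowered Dusp22 and Rasgrp3. Pax5 raised Rasal1, Dusp6, Spred2, Rasgrp2, Dusp22 and Dusp2, and no member passed the test as lower. Set directly against Pax5 cells, EBF1 cells had more Dusp5 and Rasa3 and less Dusp6, Rasal1, Dusp22, Rasgrp3, Rasal3, Dusp3 and Rasgrp4. Of the differences from Control, only those of Rasal1 and Dusp6 with Pax5 still passed whichever single array was left out. Between EBF1 and Pax5 cells, only those of Dusp5, Dusp6, Rasal1 and Dusp22 did.

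In EBF1 against Control, 5 of the 36 members were called (13.9%), against 5.60% of all genes tested. The split was 3 higher and 2 lower, 8.33% and 5.56% of the members, against 3.14% and 2.46% of all genes. The median change over the members was 0.02, beside 0.01 over all genes, and the median size of a change was 0.16 beside 0.12. All 5 calls were lost when any 1 of the EBF1 or Control arrays was left out, and far fewer of all genes were called in these fits too. Without Pax5 array 1 or 2, more members and more of all genes were called.

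In Pax5 against Control, 6 of the 36 members were called (16.7%), all higher, against 4.22% of all genes. Among all genes 2.16% were called higher and 2.06% lower. At an unadjusted p under 0.05, limma put 8 members higher and 3 lower. No such counts were made over all genes, so no share can be set beside them. The median change over the members was 0.04, beside -0.04 over all genes, and its median size was 0.19 beside 0.13. More members were called without Pax5 array 1 or 2, and fewer without any 1 EBF1 or Control array. Without Pax5 array 1, the members called included some that were lower. The number called over all genes rose without Pax5 array 1 and fell without any other array.

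In EBF1 against Pax5, 9 of the 36 members were called (25%), against 13.9% of all genes. The 2 higher made up 5.56% of the members, against 8.71% of all genes, and the 7 lower made up 19.4%, against 5.21%. The median change over the members was -0.06, beside 0.04 over all genes, and its median size was 0.15 beside 0.16. More members were called without Pax5 array 1 and fewer without any 1 EBF1 or Control array, and the number called over all genes moved the same way in these fits. The EBF1 and Pax5 comparisons with Control share the Control arrays, so their values are given side by side. In all, 12 members were called in at least 1 comparison and 24 in none. The same count over all genes was not made, so no share can be set beside it. The array annotation places the called genes on chromosomes 2 (Dusp2), 5 (Rasal1), 7 (Rasgrp4), 8 (Rasa3), 10 (Dusp6), 11 (Dusp3 and Spred2), 13 (Dusp22), 17 (Rasgrp3 and Rasal3) and 19 (Dusp5 and Rasgrp2), so no 3 of them share a chromosome.

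**Figure D1:**
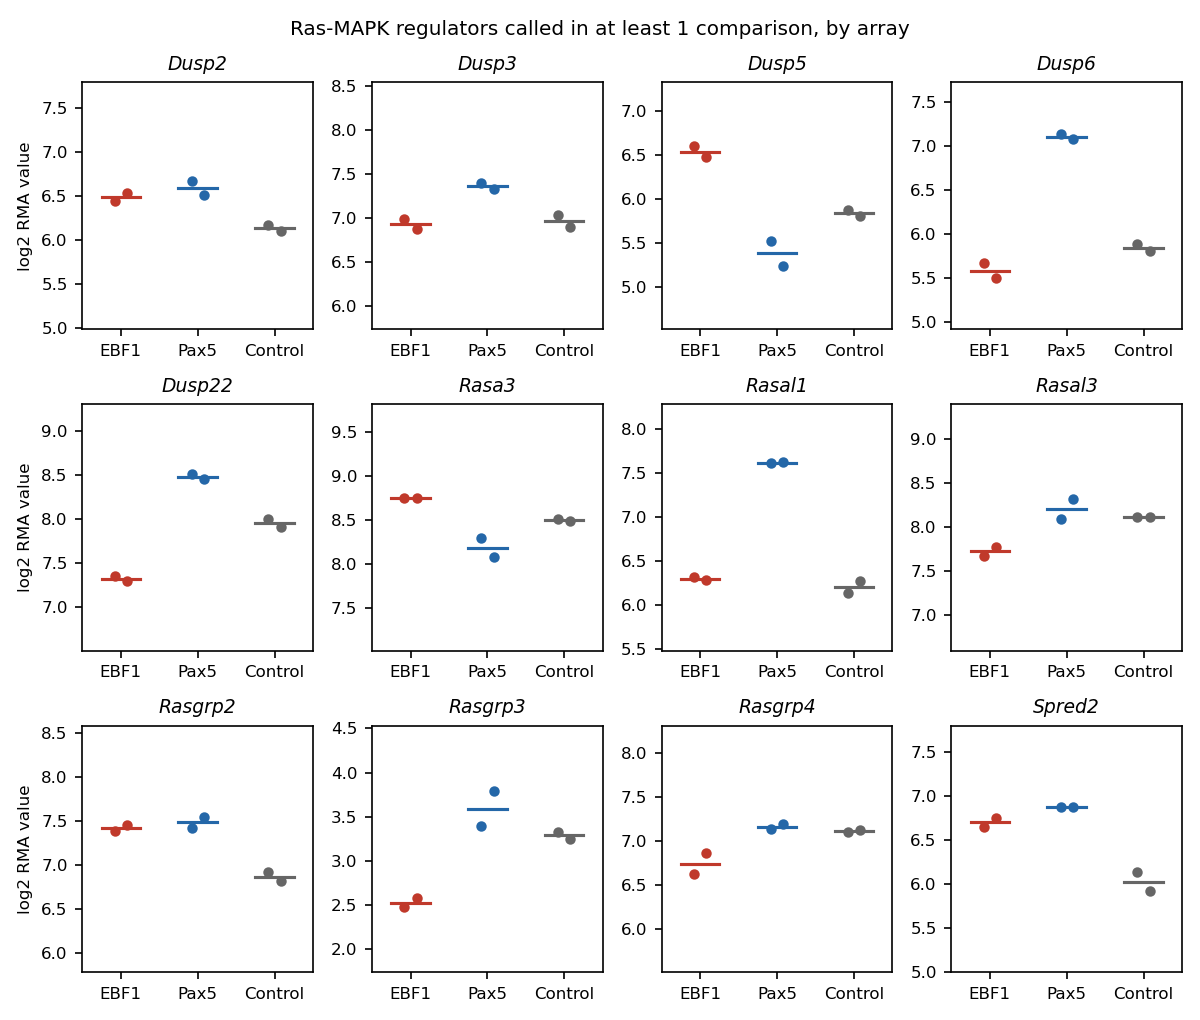
Log2 RMA signal of the 12 members called in at least 1 comparison, one panel per gene, with a point for each array and a bar for the group mean; EBF1, Pax5 and Control run from left to right. Both Pax5 points of Dusp6, Rasal1 and Dusp22 lie above all other points of the panel, and both EBF1 points of Rasgrp3 lie below them.

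Among the Rasgrp exchange factors, which activate Ras or the related Rap proteins, 3 of 4 were tested. Rasgrp1, the member best known from T cells, lay under the filter on every array, with group means of 2.86, 2.68 and 2.80 in EBF1, Pax5 and Control cells. The counts of called genes were 1 higher and 1 lower in EBF1 against Control, 1 higher in Pax5 against Control, and 2 lower in EBF1 against Pax5. Over all genes 5.60%, 4.22% and 13.9% were called, and 3 genes are too few to set against these shares.

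Rasgrp3, an exchange factor known for its action downstream of the B-cell receptor, read 2.47 and 2.57 in EBF1 cells, 3.39 and 3.79 in Pax5 cells and 3.33 and 3.24 in Control. Both EBF1 arrays were below all 4 others, and the Pax5 and Control arrays did not overlap but lay close. Its difference was -0.77 in EBF1 against Control (SE 0.14, adjusted p = 0.0335) and -1.07 in EBF1 against Pax5 (SE 0.14, adjusted p = 0.00634). In Pax5 against Control it was 0.31, with a 95% interval of -0.03 to 0.65 and adjusted p = 0.275. The EBF1 readings were under the lower quartile of their arrays (2.76 and 2.74), so the gene was at the dim end of the scale there and the size of its fall is uncertain. It passed the filter through its Pax5 and Control arrays alone, and with no filter the adjusted p was 0.0496 against Control and 0.0096 against Pax5. The call against Control was lost without either EBF1 array or either Control array (adjusted p up to 0.23), and that against Pax5 without EBF1 array 1 (0.0663) or 2 (0.056). Without Pax5 array 1, Rasgrp3 was called higher with Pax5 than in Control (0.51, adjusted p = 0.0273), and without Pax5 array 2 the difference was 0.11 (adjusted p = 0.591).

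Rasgrp2, an exchange factor known mainly for Rap1 in platelets, read 7.39 and 7.46 in EBF1 cells, 7.43 and 7.55 in Pax5 cells and 6.92 and 6.82 in Control. Both Control arrays were below all others, and the EBF1 and Pax5 arrays overlapped. EBF1 raised it by 0.55 (1.47-fold, SE 0.08, adjusted p = 0.0195) and Pax5 by 0.62 (1.54-fold, SE 0.08, adjusted p = 0.0165). EBF1 and Pax5 cells differed by -0.06, with a 95% interval of -0.27 to 0.14. Both calls were lost without any 1 Control array or any 1 EBF1 array (adjusted p up to 0.179 with EBF1 and 0.165 with Pax5).

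Rasgrp4, known from mast cells and other myeloid cells, read 6.62 and 6.86 in EBF1 cells, 7.13 and 7.19 in Pax5 cells and 7.10 and 7.12 in Control. EBF1 cells were lowest, and the difference passed only against Pax5 (-0.42, SE 0.10, adjusted p = 0.0408); against Control it was -0.37 (adjusted p = 0.0929). A second, dimmer Rasgrp4 probe set read 6.66 and 6.67 in EBF1 cells, 6.84 and 6.98 in Pax5 cells and 6.60 and 6.54 in Control. There EBF1 cells lay slightly above Control (0.09) and 0.25 below Pax5 cells, and none of its differences passed (adjusted p of 0.8, 0.174 and 0.185 in a fit of all probe sets), so the 2 probe sets disagree on the direction against Control. The call against Pax5 held in only 1 of the 6 fits without an array, that without Pax5 array 1, with an adjusted p of up to 0.192 in the others.

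The GTPase-activating proteins, 4 Rasa and 3 Rasal genes, were all tested. The count called was 0 of 7 in EBF1 against Control (limma, with 3 at an unadjusted p under 0.05), 1 higher in Pax5 against Control, and 1 higher and 2 lower in EBF1 against Pax5. Beside 5.60%, 4.22% and 13.9% of all genes, 7 genes are too few to set these counts apart.

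Rasal1, a calcium-responsive Ras GTPase-activating protein, had the largest change of any member against Control. It read 6.32 and 6.28 in EBF1 cells, 7.61 and 7.62 in Pax5 cells and 6.14 and 6.27 in Control. Both Pax5 arrays stood over a log2 unit above every other array, and the EBF1 arrays lay just above the Control arrays. Rasal1 rose by 1.41 with Pax5 (2.66-fold, SE 0.08, adjusted p = 0.00122), and in EBF1 against Pax5 it fell by 1.32 (2.49-fold, SE 0.08, adjusted p = 6.8e-04). In EBF1 against Control the difference was 0.10, with a 95% interval of -0.10 to 0.29. Both calls held in all 6 fits without an array, with adjusted p no higher than 0.0262.

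Rasa3, a GTPase-activating protein of blood cells and platelets that acts on Ras and Rap, was the brightest Rasa gene. It read 8.75 and 8.75 in EBF1 cells, 8.29 and 8.08 in Pax5 cells and 8.51 and 8.49 in Control. The Control arrays lay between the other groups, with no overlap. Only EBF1 against Pax5 passed (0.56, 1.48-fold, SE 0.09, adjusted p = 0.0138), while EBF1 cells differed from Control by 0.25 (adjusted p = 0.207) and Pax5 cells by -0.31 (adjusted p = 0.141). The call was lost without EBF1 array 1 or 2 (adjusted p up to 0.102).

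Rasal3, a Ras GTPase-activating protein of lymphocytes, was the brightest Rasal gene, and its probe set also carries a second symbol in the annotation. It read 7.67 and 7.77 in EBF1 cells, 8.09 and 8.31 in Pax5 cells and 8.11 and 8.11 in Control. EBF1 cells were below all other arrays, and Pax5 cells straddled Control. The difference passed in EBF1 against Pax5 (-0.48, SE 0.10, adjusted p = 0.0252) and not in EBF1 against Control (-0.39, adjusted p = 0.0794). It held in 1 of the 6 fits without an array, that without Pax5 array 1, and the adjusted p reached 0.16 in the others.

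Rasa4, a calcium-triggered member, read 5.15 and 5.17 in EBF1 cells, 4.85 and 4.41 in Pax5 cells and 4.67 and 4.57 in Control. EBF1 cells were highest, at 0.54 above Control (adjusted p = 0.103) and 0.53 above Pax5 cells (adjusted p = 0.0634), and neither difference passed. The first passed with the 4 arrays compared alone (adjusted p = 0.0149), a test that the fits without Pax5 array 1 or 2 merely repeat. The second passed without Pax5 array 1 (0.76, adjusted p = 0.00603), with a repeated quantile normalization (0.0441), with the filter at the 50th percentile (0.0392) and with eBayes set to trend and robust (0.0367). Rasa1, the first-described Ras GTPase-activating protein, differed by -0.07, -0.09 and 0.02 in EBF1 against Control, Pax5 against Control and EBF1 against Pax5. For Rasa1 the 95% intervals were -0.30 to 0.15, -0.32 to 0.13 and -0.20 to 0.25. Rasa2 and Rasal2 had no call either, with differences from Control between -0.18 and 0.14.

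Of the Sprouty and Spred inhibitors, 6 of 7 were tested, and Spred2 alone was called. Spred2, which blocks the activation of Raf by Ras, read 6.65 and 6.75 in EBF1 cells, 6.87 and 6.87 in Pax5 cells and 6.13 and 5.92 in Control. All 4 arrays with a factor were above both Control arrays. EBF1 raised it by 0.68 (1.6-fold, SE 0.10, adjusted p = 0.017) and Pax5 by 0.85 (1.8-fold, SE 0.10, adjusted p = 0.0096). Pax5 arrays were both above the EBF1 arrays, but the difference of -0.17 did not pass (95% interval -0.41 to 0.07, adjusted p = 0.306).

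A second Spred2 probe set read 5.88 and 5.90 in EBF1 cells, 6.09 and 6.45 in Pax5 cells and 5.12 and 5.23 in Control. It ran the same way, 0.72 above Control in EBF1 cells (adjusted p = 0.0673) and 1.10 above it in Pax5 cells (adjusted p = 0.022), both from a fit of all probe sets. For the brighter probe set, the rise with Pax5 held in 4 of 6 fits without an array and was lost without Control array 1 (adjusted p = 0.0561) or 2 (0.0897). The rise with EBF1 was lost without any 1 EBF1 or Control array (adjusted p up to 0.142).

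The other Spred genes did not pass. Spred1, the brightest of the 3 and known to bring neurofibromin to the membrane, differed by 0.04 from Control with EBF1 and by 0.18 with Pax5 (adjusted p = 0.846 and 0.244). Spred3 read 4.59 and 4.71 in EBF1 cells, 4.41 and 3.76 in Pax5 cells and 4.78 and 4.76 in Control. Pax5 cells were lowest but their 2 arrays lay far apart, and the difference from Control of -0.68 had an adjusted p of 0.133. With eBayes set to trend and robust, limma gave this difference an adjusted p of 0.0482.

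For the Sprouty genes, induced feedback inhibitors of receptor tyrosine kinase signalling, 0 of 3 tested were called in any comparison (limma, with 0 at an unadjusted p under 0.05). With 5.60%, 4.22% and 13.9% of all genes called, 0 of 3 does not set the family apart. Spry1, the brightest, read 5.04 and 5.01 in EBF1 cells, 4.94 and 4.61 in Pax5 cells and 4.89 and 4.84 in Control. The 95% interval of its difference from Control was -0.13 to 0.45 with EBF1 and -0.38 to 0.20 with Pax5. For Spry2 the intervals were -0.04 to 0.49 and -0.31 to 0.23. Spry4 differed from Control by 0.04 with EBF1 and -0.09 with Pax5, and Spry3 lay under the filter.

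**Figure D2:**
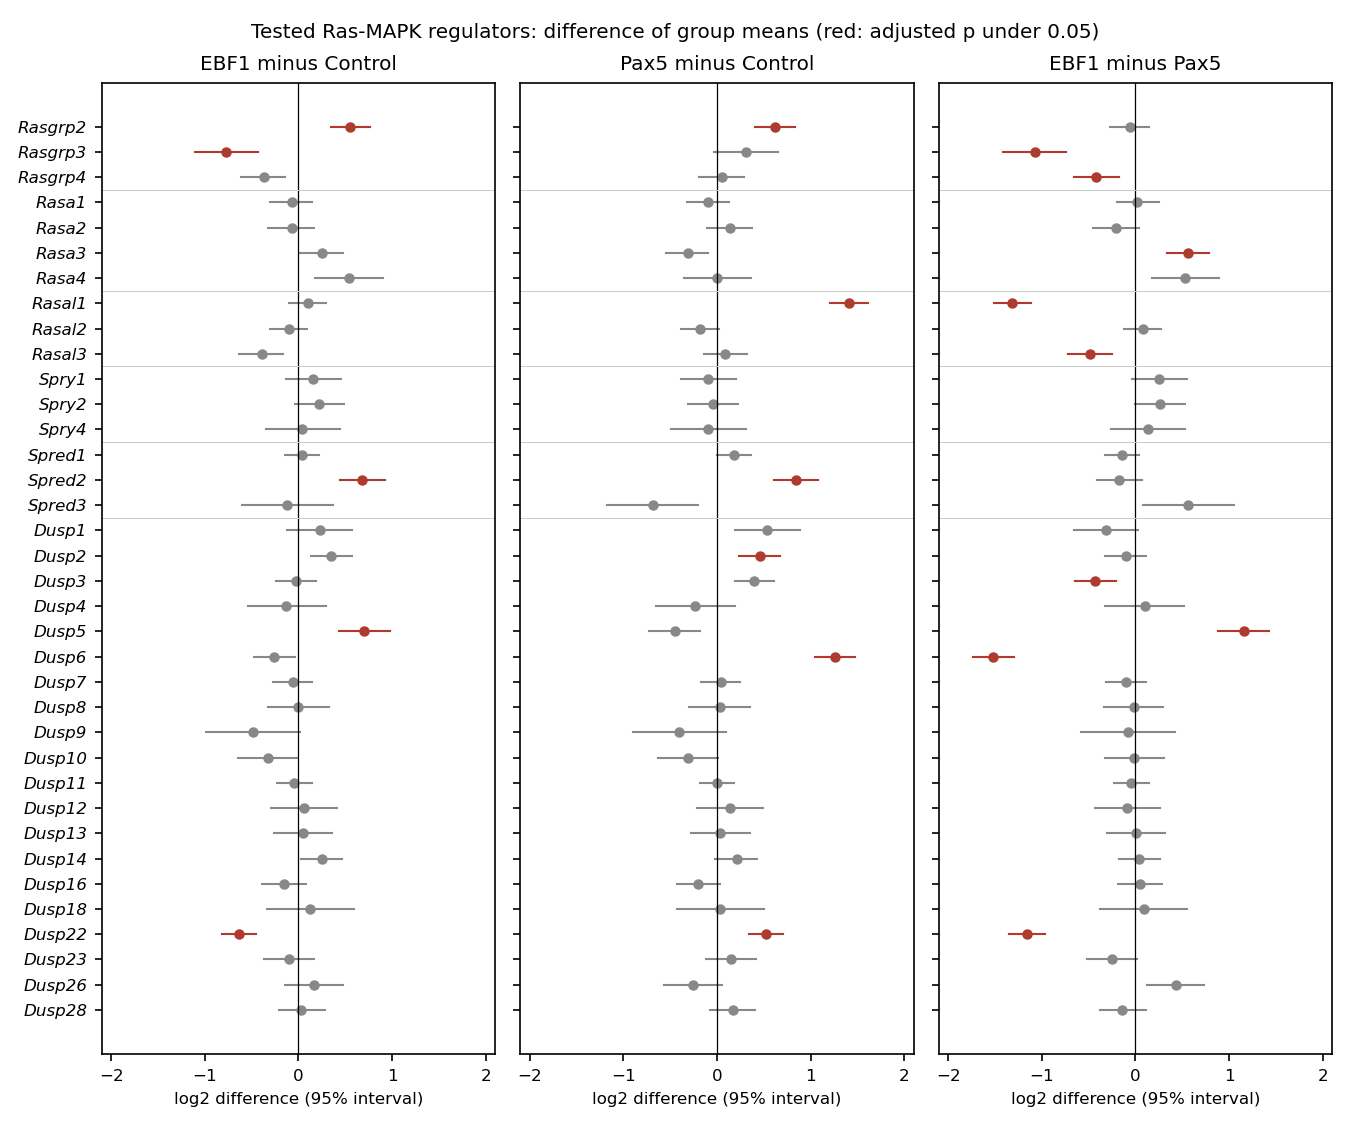
Log2 difference with its 95% interval from limma for the 36 members tested, in EBF1 against Control, Pax5 against Control and EBF1 against Pax5, with adjusted p under 0.05 in red. Pax5 against Control has 6 red points, all right of 0, while EBF1 against Pax5 has 7 left of 0 and 2 right of it.

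The dual-specificity phosphatases hold 10 genes usually classed as MAP kinase phosphatases (Dusp1, Dusp2, Dusp4 to Dusp10 and Dusp16), and all 10 were tested. In EBF1 against Control 1 was higher, in Pax5 against Control 2 were higher, and in EBF1 against Pax5 1 was higher and 1 lower. Among 10 genes these counts are too small to set apart from the 5.60%, 4.22% and 13.9% of all genes called. The ERK phosphatases Dusp6 and Dusp5 ran in opposite directions between the EBF1 and Pax5 cells.

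Dusp6, a cytoplasmic phosphatase selective for ERK and a known read-out of ERK activity, read 5.67 and 5.51 in EBF1 cells, 7.14 and 7.08 in Pax5 cells and 5.89 and 5.81 in Control. Pax5 arrays were far above the rest, and both EBF1 arrays were below both Control arrays. It rose by 1.26 with Pax5 (2.39-fold, SE 0.09, adjusted p = 0.00228), and in EBF1 against Pax5 it fell by 1.52 (2.86-fold, SE 0.09, adjusted p = 5.6e-04), the largest difference of any member. The difference of -0.26 in EBF1 against Control did not pass (SE 0.09, adjusted p = 0.171). Both calls held in all 6 fits without an array, with adjusted p no higher than 0.0445 for Pax5 against Control and 0.0128 for EBF1 against Pax5.

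Dusp5, the nuclear ERK phosphatase, read 6.60 and 6.47 in EBF1 cells, 5.52 and 5.24 in Pax5 cells and 5.87 and 5.80 in Control. Here EBF1 cells were highest, Pax5 cells lowest and Control between them, with no overlap. The rise with EBF1 was 0.70 (1.63-fold, SE 0.11, adjusted p = 0.0232), and EBF1 cells stood 1.16 above Pax5 cells (2.23-fold, SE 0.11, adjusted p = 0.00254). The difference of -0.45 in Pax5 against Control did not pass (adjusted p = 0.094), but did without Pax5 array 1 (-0.59, adjusted p = 0.0207). The call in EBF1 against Pax5 held in all 6 fits without an array, while that in EBF1 against Control was lost without any 1 EBF1 or Control array (adjusted p up to 0.186). The Dusp5 promoter, shown above, is the one with 2 adjoining CArG boxes, a motif chosen after values of these genes had been seen. That of Dusp6 held none of the 3 motifs searched, and a link of motif to direction was not tested.

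Dusp2, a nuclear MAP kinase phosphatase of activated lymphocytes, read 6.44 and 6.53 in EBF1 cells, 6.67 and 6.51 in Pax5 cells and 6.17 and 6.10 in Control. All 4 arrays with a factor were above Control. The rise with Pax5 only just passed (0.46, 1.37-fold, SE 0.09, adjusted p = 0.0492) and the difference with EBF1 did not (0.35, adjusted p = 0.0867). The Pax5 call was lost with no filter, with the 4 arrays of the groups compared alone, and without any 1 EBF1 or Control array (adjusted p up to 0.311).

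Among the other MAP kinase phosphatases, Dusp1, an immediate-early gene that acts on p38, JNK and ERK, read 4.93 and 5.02 in EBF1 cells, 5.48 and 5.09 in Pax5 cells and 4.83 and 4.66 in Control. Its difference from Control was 0.54 with Pax5 (95% interval 0.19 to 0.89, adjusted p = 0.107) and 0.23 with EBF1 (adjusted p = 0.462), and neither passed over all genes. Without Pax5 array 2, which leaves 1 Pax5 array, Dusp1 differed by 0.74 in Pax5 against Control and by -0.51 in EBF1 against Pax5. Dusp10, which acts on p38 and JNK, differed from Control by -0.33 in EBF1 cells and -0.31 in Pax5 cells, and neither passed (adjusted p of 0.243 and 0.247). Dusp9 read 3.52 and 3.42 in EBF1 cells, 3.89 and 3.21 in Pax5 cells and 3.95 and 3.95 in Control, with Pax5 arrays far apart and no call. Its difference of -0.48 in EBF1 against Control (adjusted p = 0.268) passed in limma with the 4 arrays compared alone (adjusted p = 0.0186). Dusp4, Dusp7, Dusp8 and Dusp16 differed from Control by between -0.23 and 0.04.

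Of the other 14 Dusp genes, many of them small atypical phosphatases with varied substrates, 10 were tested. EBF1 against Control had 1 lower, Pax5 against Control 1 higher, and EBF1 against Pax5 2 lower, counts again too small to set apart from the shares of all genes called. Dusp22 was called in all 3 comparisons, the one member of which this holds.

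Dusp22, an atypical phosphatase known to act on Lck and in the JNK route, read 7.35 and 7.30 in EBF1 cells, 8.51 and 8.45 in Pax5 cells and 8.0 and 7.91 in Control. The 3 groups did not overlap, with EBF1 cells lowest and Pax5 cells highest. It fell by 0.63 with EBF1 (1.55-fold, SE 0.08, adjusted p = 0.01) and rose by 0.52 with Pax5 (1.44-fold, SE 0.08, adjusted p = 0.0212). In EBF1 against Pax5 the difference was -1.16 (2.23-fold, SE 0.08, adjusted p = 7.9e-04), and this call held in all 6 fits without an array. Both calls against Control were lost without any 1 EBF1 or Control array, with adjusted p up to 0.115 for EBF1 and 0.202 for Pax5.

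Dusp3, a small phosphatase of ERK and JNK, read 6.99 and 6.88 in EBF1 cells, 7.40 and 7.33 in Pax5 cells and 7.03 and 6.90 in Control. EBF1 and Control arrays overlapped, and both Pax5 arrays were higher. The difference passed in EBF1 against Pax5 (-0.43, SE 0.09, adjusted p = 0.0273) and not in Pax5 against Control (0.40, adjusted p = 0.068). It was lost without any 1 EBF1 or Control array (adjusted p up to 0.162).

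Dusp11, which acts on RNA and was the brightest Dusp gene, read 8.04 and 8.0 in EBF1 cells, 8.03 and 8.10 in Pax5 cells and 8.08 and 8.05 in Control. The groups overlapped, and the 95% intervals of its differences from Control were -0.23 to 0.14 with EBF1 and -0.18 to 0.18 with Pax5. The other Dusp genes tested here, Dusp12, Dusp13, Dusp14, Dusp18, Dusp23, Dusp26 and Dusp28, had no call. Their differences from Control ran from -0.26, for Dusp26 with Pax5, to 0.25, for Dusp14 with EBF1.

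The rest of the pathway was read from a list of 70 genes, of which 69 were on the array and 67 were tested. Called were 4 higher and 1 lower in EBF1 against Control, 1 higher and 2 lower in Pax5 against Control, and 4 higher and 3 lower in EBF1 against Pax5. These calls made up 7.46%, 4.48% and 10.4% of the genes tested from the list, beside 5.60%, 4.22% and 13.9% of all genes, so the list as a whole lay near the background. Of 11 ERK-cascade genes 0 passed in any comparison (limma, with 4, 1 and 5 at an unadjusted p under 0.05), and of 15 p38 and JNK genes 0 passed (1, 4 and 4 at an unadjusted p under 0.05), counts too small to set apart from those shares.

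Etv5, an ETS factor known to be induced by ERK signalling in several tissues, read 5.26 and 5.20 in EBF1 cells, 6.71 and 6.75 in Pax5 cells and 4.78 and 4.77 in Control. Pax5 arrays were highest, and EBF1 arrays lay between them and Control. It rose by 1.96 with Pax5 (SE 0.07, adjusted p = 3.0e-04) and by 0.45 with EBF1 (adjusted p = 0.023), and in EBF1 against Pax5 it fell by 1.5 (adjusted p = 3.1e-04). The rise of Etv5 with Pax5 held in all 6 fits without an array. Its rise with EBF1 was lost without any 1 EBF1 or Control array, and when its probe sets were averaged (a log2 difference of 0.27). Of the 18 tested genes listed as ERK effectors or induced by ERK, Etv5 alone was called in Pax5 against Control. That is 5.56%, beside 4.22% of all genes, and the median difference of the 18 genes was -0.05.

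Rras2, a Ras-related GTPase, read 8.42 and 8.53 in EBF1 cells, 7.23 and 7.47 in Pax5 cells and 7.49 and 7.43 in Control. EBF1 arrays alone were high, and Pax5 and Control overlapped. EBF1 cells stood 1.02 above Control (SE 0.10, adjusted p = 0.00541), and 1.12 above Pax5 cells (adjusted p = 0.00212). The call against Control was lost without any 1 EBF1 or Control array (adjusted p up to 0.0717), and that against Pax5 was not.

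Myc, a transcription factor stabilised and induced downstream of mitogen signals, read 10.56 and 10.47 in EBF1 cells, 9.93 and 9.81 in Pax5 cells and 9.99 and 9.99 in Control. EBF1 arrays were again above all others, by 0.52 against Control (adjusted p = 0.0208) and 0.64 against Pax5 (adjusted p = 0.00611). Plcg2, which makes the diacylglycerol that recruits Rasgrp proteins, rose by 0.48 with EBF1 (adjusted p = 0.0282) and was 0.40 higher in EBF1 than in Pax5 cells (adjusted p = 0.0274). Rasgrf2, another exchange factor, fell by 0.49 with EBF1 (adjusted p = 0.0419).

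With Pax5, the adaptor Gab2 fell by 0.45 (adjusted p = 0.0402) and Ptpn11, the phosphatase SHP2 that relays receptor signals to Ras, fell by 0.40 (adjusted p = 0.0369). Gab2 was 0.41 higher in EBF1 than in Pax5 cells (adjusted p = 0.0246). Nf1, the gene of the Ras GTPase-activating protein neurofibromin, was lower in EBF1 than in Pax5 cells (-0.49, adjusted p = 0.0153). Of these calls of Myc, Plcg2, Rasgrf2, Gab2, Ptpn11 and Nf1, each was lost in at least 1 fit without an array, with adjusted p from 0.064 for Myc in EBF1 against Pax5 to 0.277 for Rasgrf2 at its highest. The calls of Gab2 and Ptpn11 against Control and of Rasgrf2 were also lost with no filter on low values. With the 4 arrays compared alone, both calls of Gab2, that of Ptpn11 and that of Plcg2 between EBF1 and Pax5 cells were lost, and a repeated quantile normalization ended that of Ptpn11.

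**Figure D3:**
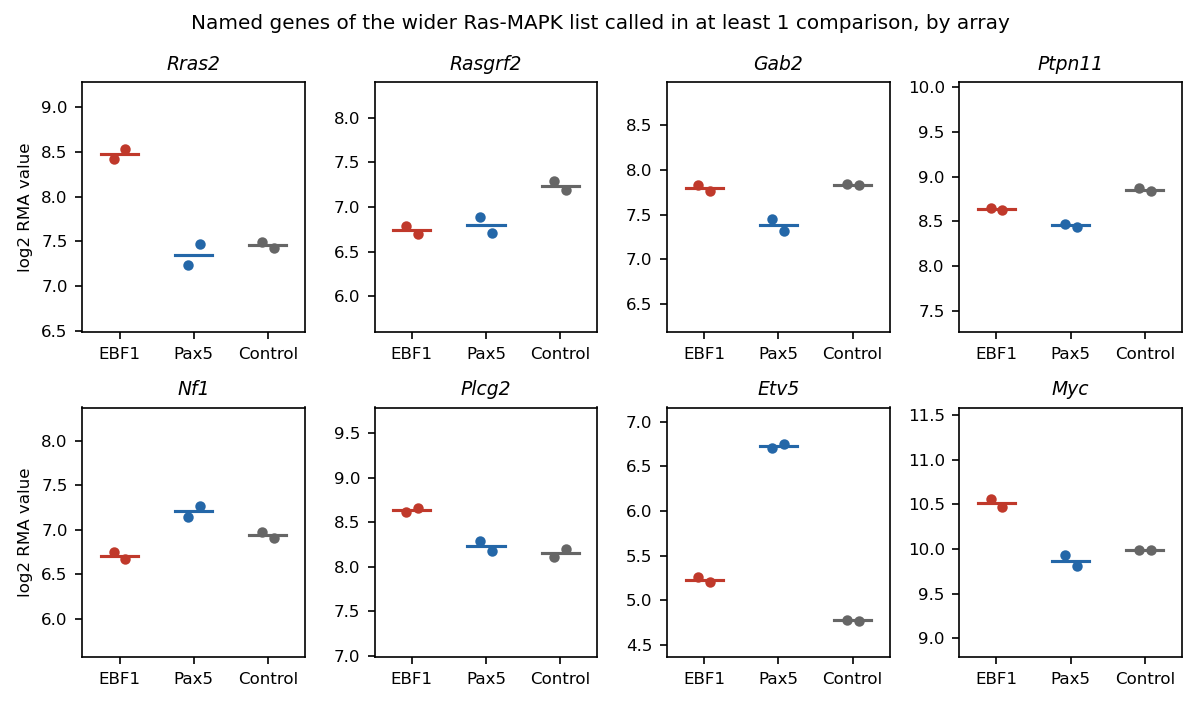
Log2 RMA signal by array for the called genes named from the wider Ras-MAPK list, one panel per gene, with points for arrays and bars for group means, EBF1 left of Pax5 and Pax5 left of Control. Etv5 is highest on both Pax5 arrays, at 6.71 and 6.75, while Rras2 and Myc are highest on both EBF1 arrays.

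In the authors' deposited table, 9, 11 and 11 of the 42 members had an unadjusted p under 0.05 for EBF1 against Control, Pax5 against Control and Pax5 against EBF1. After step-up adjustment in the authors' deposited table these became 0, 0 and 3, against 6, 20 and 449 of the 28350 probe sets. The unadjusted counts were not made over all probe sets, so no share can be set beside the 9, 11 and 11. The 3 members in the authors' deposited table were Dusp6 (0.0375), Dusp22 (0.0349) and Rasal1 (0.0349), the members whose limma calls between EBF1 and Pax5 cells, beside that of Dusp5, held in every fit without an array. The ratio in the authors' deposited table runs Pax5 over EBF1, and for Dusp6 it is 2.86.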

How the data were processed

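Expression was measured on 6 Affymetrix arrays, from 50 ng of total RNA each per the labels' protocols. The deposited values are log2 signals per probe set, made by the authors with RMA and Partek 6.5 per the submitters' processing notes. The sources used here name neither the RMA options nor a genome build. A second deposited table holds, per the file headers, the authors' p-value, step-up p-value and ratio for each pair of groups. Its 9 columns of per-array values and group means carry other names than the samples and were not used.

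Of 28350 probe sets, 22969 carried 1 symbol, 2285 several and 3096 none, and 22114 matched RefSeq. The annotation text ends at 255 characters. Probe sets with several symbols were left out except for members, and the brightest probe set per symbol was used. The 15296 genes tested exceeded the 30th percentile of an array on 2 or more arrays. limma 3.58.1 in R 4.3.3 (lmFit, eBayes, two-sided) was fitted to all 6 arrays with 3 group means (3 residual and 3.18 prior degrees of freedom), with Benjamini-Hochberg adjustment. The script was tested on simulated data. RMA gives no detection call, and the number of arrays limits precision.

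Named genes were every member called in any comparison, Rasgrp3, the brightest member of each family and the called genes of the pathway list, of which 1 is not reported here; a few uncalled members were named after their values were seen. The members and lists were chosen with earlier results of these data known. Alternatives were a repeated quantile normalization, no filter, a filter at the 50th percentile, the mean of a gene's probe sets, eBayes set to trend and robust, only the 4 arrays compared, a replicate block, and each array left out.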

Additional observations from a re-analysis of the deposited data

How the results depend on the processing

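The number of members called moved most when an array was left out: from 0 to 9 in EBF1 against Control (5 with all arrays), from 2 to 13 in Pax5 against Control (6) and from 4 to 14 in EBF1 against Pax5 (9). With eBayes set to trend and robust it was 9 in EBF1 against Control and 10 in Pax5 against Control, and with only the 4 arrays of the groups compared 9 and 3. Of the 20 member calls, 6 held in all 6 fits without an array. In each comparison, leaving out an array of the third group repeats the fit with only the 4 arrays compared, so these fits are not all separate tests. With only 4 arrays the calls of Dusp2, Dusp22 and Rasgrp2 in Pax5 against Control and of Dusp3, Rasal3 and Rasgrp4 in EBF1 against Pax5 were lost, and with no filter those of Dusp2 and Rasgrp4. Among called members and the brightest of each family, differences that passed under at least 1 alternative alone were those of Dusp2, Rasa3, Rasal3 and Rasgrp4 in EBF1 against Control, of Dusp3, Dusp5, Rasa3 and Rasgrp3 in Pax5 against Control, and of Spry1 in EBF1 against Pax5. Of the same genes, 4 differences that had not passed changed sign without 1 array, in ranges of -0.09 to 0.04 for Dusp3 in EBF1 against Control (0.03 without EBF1 array 2 and 0.04 without Control array 1), -0.02 to 0.20 for Rasal3 in Pax5 against Control, -0.04 to 0.04 for Dusp11 in Pax5 against Control (-0.01 without Control array 2) and -0.26 to 0.08 for Spry1 in Pax5 against Control. The cause was not tested.

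Over all genes, the calls in EBF1 against Control were 857, but 1787 with the trend and robust options, 1426 with 4 arrays, 1331 with the filter at the 50th percentile and 565 with the replicate block. In Pax5 against Control they were 646, but 1643, 240, 1000 and 412 in the same order, and in EBF1 against Pax5 2130, but 3370 with the trend and robust options and 1093 with 4 arrays. Same-numbered arrays did not deviate together (correlations of -0.01, 0.01 and 0.01). Whether they were prepared together is unknown here, and these correlations cannot decide it. With the replicate block as a term, 5, 5 and 9 members were called, and Dusp2 was no longer called in Pax5 against Control. The block also ended the calls of Gab2 and Ptpn11 in Pax5 against Control, of Etv5 in EBF1 against Control and of Plcg2 in both its comparisons.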

Other observations

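The 6 members left out by the filter were Dusp15, Dusp19, Dusp21, Dusp27, Rasgrp1 and Spry3, with means over the 6 arrays of 2.33 to 2.82. Dusp15 and Dusp27 exceeded the 30th percentile on 1 array each, Pax5 array 2, where they read 3.10 and 3.31. On Pax5 array 1 Dusp15 read 2.54 and Dusp27 2.71. Just inside the filter lay Dusp18 with a mean of 3.08, Rasgrp3 with 3.13 and Rasal2 with 3.38. Among members, the largest differences between the arrays of a group were 0.67 for Dusp9 in Pax5 cells, 0.40 for Spry4 in Control and 0.34 for Dusp18 in EBF1 cells.

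Without Pax5 array 1, the members called lower with Pax5 than in Control were Dusp4, Dusp5, Dusp9, Dusp26, Rasa3 and Spred3. None of these 6 was called in Pax5 against Control with all arrays. The fit that named them rests on 1 Pax5 array, and far more of all genes were called in it too. The share of all genes called lower there was not made, so the 6 are not set apart from other genes. The remaining Pax5 array read higher than the other for S100a8, S100a9 and Col1a2, and lower for Itgam and Col3a1. The part of other cell types in these differences was not tested.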
